A study of Mus musculus with 2 samples.

Results

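Cytochrome c oxidase, the last enzyme of the mitochondrial respiratory chain, has several nuclear-encoded subunits that come in pairs of gene products, one made in most tissues and one restricted to a few. The levels of 5 such pairs were read in the embryonic mouse heart: Cox4i2 with Cox4i1, Cox6a2 with Cox6a1, Cox6b2 with Cox6b1, Cox7a1 with Cox7a2, and Cox8b with Cox8a. The 10 genes were taken by symbol from GENCODE M21, a mouse gene annotation, in which 55536 genes were measured, and all 10 were found in both libraries. The data were 2 polyA RNA-seq libraries, replicate 1 and replicate 2, from whole hearts of B6NCrl mouse embryos at embryonic day 12.5, with male and female embryos pooled. No mutant, treatment or second stage was part of the design, so both libraries formed 1 group. The libraries were labelled as biological replicates. They carried separate biosample records under 1 donor record, so the spread between them may be partly technical. Each library was made from 10 ng of RNA after priming with oligo-dT, with ERCC spike-in RNA added.

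The enzyme passes electrons from cytochrome c to oxygen on a core of mitochondrially encoded subunits, while the nuclear-encoded subunits surround that core and tune its activity and assembly. Cox6a2, Cox7a1 and Cox8b encode the forms known from heart and skeletal muscle, Cox4i2 encodes a form known from lung and from oxygen-sensing and vascular cells, and Cox6b2 encodes a form known from testis. In rodent hearts the muscle forms are known to increase late in development, and the ubiquitous forms, also called liver forms, predominate in the fetal heart.

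Total estimated counts including spike-ins were 35520161 in replicate 1 and 32577548 in replicate 2. The tissue label fitted its markers: 9 of 9 cardiomyocyte markers reached a TPM (transcript abundance scaled to a fixed total per library) of 1 in both libraries, and their summed levels were 32025 and 32169 TPM. Of 9 skeletal muscle markers 3 reached that level, with sums of 26.4 and 26.2 TPM. Endothelial markers (5 of 5) summed to 327 and 343 TPM. Red-cell markers (5 of 5) summed to 37584 and 33506 TPM, and hepatocyte markers (4 of 5) to 133 and 28.0 TPM. In bulk tissue a smaller number of cells of one type and less RNA per cell cannot be told apart.

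In all 5 pairs and in both libraries the tissue-restricted gene was below its ubiquitous partner, and with all M21 transcripts the levels of the tissue-restricted genes did not overlap those of the ubiquitous genes. Over protein-coding transcripts alone they did, since Cox6a2 at 494 TPM lay above Cox7a2 at 416 TPM. This measure sums the TPM of protein-coding transcripts and drops counts given to other transcripts, without returning them to the coding ones. Mean levels of the tissue-restricted genes ran over a 31.9-fold range, with Cox6a2 at 494 TPM, Cox7a1 at 236, Cox8b at 76.0, Cox6b2 at 33.3 and Cox4i2 at 15.5. The ubiquitous genes spanned 1.70-fold, with Cox8a at 1668 TPM, Cox6b1 at 1413, Cox4i1 at 1324, Cox6a1 at 1018 and Cox7a2 at 984. That range was 2.51-fold with the older release M4 and 4.00-fold over protein-coding transcripts, both added after seeing the data. Among the 55536 genes these placed Cox8a at rank 57, Cox7a2 at rank 114, Cox6a2 at rank 255 and Cox4i2 at rank 7250. The SD over the 2 libraries was between 0.098% and 7.43% of the mean, so every neighbouring pair in the order of tissue-restricted levels was separated by more than its spread. Among the ubiquitous genes Cox6a1 and Cox7a2 lay closest, at 1018 ± 26.6 and 984 ± 0.969 TPM (SD, n = 2 each), and their library values did not overlap. Summed over 5 genes, the tissue-restricted forms reached 854 TPM in replicate 1 and 857 TPM in replicate 2, and the ubiquitous forms reached 6470 and 6343 TPM.

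**Figure D1:**
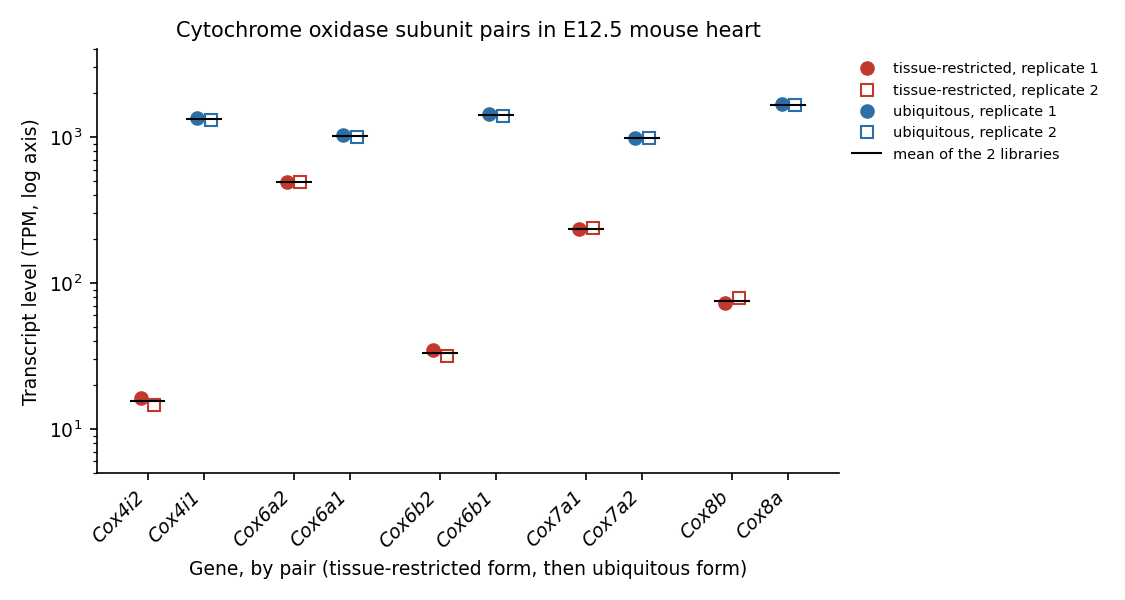
Level of each gene in TPM (log axis) in replicate 1 (filled circles) and replicate 2 (open squares), with the tissue-restricted form left of the ubiquitous form in each pair and the mean as a line. The tissue-restricted genes run between 15.5 and 494 TPM on average and the ubiquitous ones between 984 and 1668 TPM.

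With all M21 transcripts the COX6A pair had the highest share of a tissue-restricted form, while over protein-coding transcripts Cox7a1 had a higher share (36.1% and 36.4%) than Cox6a2 (32.5% and 33.3%). COX6A is a subunit at the dimer contact of the enzyme, where adenine nucleotides act on its activity. Cox6a2 (ENSMUSG00000030785, mm10 chr7:128205435-128206387, minus strand), the muscle form, had 495 TPM in replicate 1 and 493 in replicate 2. Cox6a1 (ENSMUSG00000041697, chr5:115345642-115348981, minus strand) stood at 1037 and 999 TPM. Cox6a2 thus made up 32.3% of the pair's summed TPM in replicate 1 (95% interval 31.7 to 33.0) and 33.0% in replicate 2 (32.3 to 33.7). The intervals overlapped, and the mean log2 ratio of Cox6a2 to Cox6a1 was −1.04 ± 0.03 (SD, n = 2) on the log2(TPM + 0.5) scale. These values rest on 7095 and 6392 counts of Cox6a2 and on 12089 and 10539 counts of Cox6a1. Cox6a2 has 1 annotated transcript, and Cox6a1-201 carried 99.1% and 98.9% of Cox6a1. The gene Itgad, an integrin subunit, overlaps Cox6a2 on the opposite strand. Its own counts were 2 and 6, and whether the counting used strand is not given in the sources used here. The coding sequences of the pair, shown because they tell how far reads of the 2 genes can be separated, were identical at 62.5% of aligned bases, and the longest run of bases shared by their transcripts was 12. Both are printed 5′ to 3′ from GENCODE M21, without the stop codon and for Cox6a1 from base 37 to base 336, and capitals mark bases that differ from the partner or have no counterpart in it.
Cox6a2-201: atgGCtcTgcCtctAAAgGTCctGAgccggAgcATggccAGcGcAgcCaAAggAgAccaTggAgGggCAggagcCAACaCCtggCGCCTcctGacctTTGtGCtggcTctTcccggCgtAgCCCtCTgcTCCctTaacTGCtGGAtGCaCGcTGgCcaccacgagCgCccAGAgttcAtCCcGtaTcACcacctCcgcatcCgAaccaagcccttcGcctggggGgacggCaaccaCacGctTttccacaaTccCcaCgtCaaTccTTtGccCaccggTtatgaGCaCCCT
Cox6a1-201: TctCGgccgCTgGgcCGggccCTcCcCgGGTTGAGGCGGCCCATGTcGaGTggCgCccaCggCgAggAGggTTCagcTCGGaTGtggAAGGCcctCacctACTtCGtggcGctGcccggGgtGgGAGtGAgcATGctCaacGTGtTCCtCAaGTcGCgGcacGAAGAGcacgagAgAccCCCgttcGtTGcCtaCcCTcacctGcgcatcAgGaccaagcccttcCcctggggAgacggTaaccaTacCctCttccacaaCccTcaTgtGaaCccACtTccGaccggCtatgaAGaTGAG

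COX7A sits at the enzyme surface where it meets complex III in respiratory supercomplexes. Cox7a1 (ENSMUSG00000074218, chr7:30184144-30186078, plus strand), the muscle form, had 235 TPM in replicate 1 and 238 in replicate 2. Cox7a2 (ENSMUSG00000032330, chr9:79755361-79759878, minus strand) stood at 983 and 984 TPM. Cox7a1 was 19.3% of the pair's TPM in replicate 1 (18.5 to 20.1) and 19.5% in replicate 2 (18.6 to 20.3), from 1714 and 1578 counts of Cox7a1 and 11031 and 9989 counts of Cox7a2. The libraries gave the same share within counting error, with a mean log2 ratio of −2.06 ± 0.01 (SD, n = 2). The coding sequences, shown on the same footing as those of COX6A, were identical at 61.7% of aligned bases, with a longest shared run of 12 bases in the transcripts.
Cox7a1-201: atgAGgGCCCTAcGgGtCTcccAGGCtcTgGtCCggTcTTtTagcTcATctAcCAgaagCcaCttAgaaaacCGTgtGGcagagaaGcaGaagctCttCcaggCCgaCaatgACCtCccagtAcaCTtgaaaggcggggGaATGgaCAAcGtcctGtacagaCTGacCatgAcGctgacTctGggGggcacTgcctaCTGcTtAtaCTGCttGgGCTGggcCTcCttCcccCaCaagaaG
Cox7a2-201: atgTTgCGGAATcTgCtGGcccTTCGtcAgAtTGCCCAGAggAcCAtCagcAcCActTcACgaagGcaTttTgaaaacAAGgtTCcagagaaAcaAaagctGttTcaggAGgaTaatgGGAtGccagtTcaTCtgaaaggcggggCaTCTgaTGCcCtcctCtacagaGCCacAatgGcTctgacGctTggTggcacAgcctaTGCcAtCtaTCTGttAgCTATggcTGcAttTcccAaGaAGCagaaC

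The share of Cox7a1 depended on which Cox7a2 transcripts were counted. M21 lists 3 transcripts of Cox7a2, of which 1, Cox7a2-201, is protein coding. Cox7a2-203, classed as a processed transcript with no annotated protein, was given 565 TPM in replicate 1 and 567 in replicate 2, which was 57.5% and 57.6% of the gene. Cox7a2-201 was given 416 and 416 TPM, or 42.3% and 42.2%. The estimates were alike in the 2 libraries, and the posterior SD reported for the count of Cox7a2-203 was 105 in each, against counts of 5270 and 4784. By TPM, Cox7a2 was thus the only one of the 10 genes whose most abundant transcript was not protein coding. By counts not divided by length the coding Cox7a2-201 had more, 5749 in replicate 1 and 5197 in replicate 2, or 52.1% and 52.0% of the gene. The transcripts share exons 2 and 3 (chr9:79758490-79758579 and chr9:79756277-79756361) and most of the last one, and differ in the first exon. That of Cox7a2-201 covers 239 bases (chr9:79759640-79759878), and that of Cox7a2-203 covers 102 bases (chr9:79759150-79759251), inside the first intron of Cox7a2-201. The junctions into the shared exon 2, which are part of the sequence that tells the 2 transcripts apart, are printed with the last 15 bases of the first exon in capitals.
Cox7a2-201: TTGCGGAATCTGCTGgcccttcgtcagatt
Cox7a2-203: CCAAAATTTAAAAAGgcccttcgtcagatt

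With Cox7a2-203 left out, that is over protein-coding transcripts, Cox7a1 was 36.1% of its pair in replicate 1 and 36.4% in replicate 2. GENCODE M4, an older release that lists 1 transcript of Cox7a2, gave nearly the same gene counts, 11030 and 9986. The effective length by which counts are divided to give TPM was 655 bases in M4 and 455 bases in M21, and the TPM of the gene in M4 was lower, at 713 and 714. Cox7a1 itself also changed with M4, to 267 TPM in replicate 1 and 268 in replicate 2. Its effective length was 265 bases in M4, against 296 and 297 in M21. With both changes the M4 share of Cox7a1 was 27.3% in both libraries. Reads per exon or per junction were not analysed here, so the level of Cox7a2-203 was not tested against its own first exon.

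**Figure D2:**
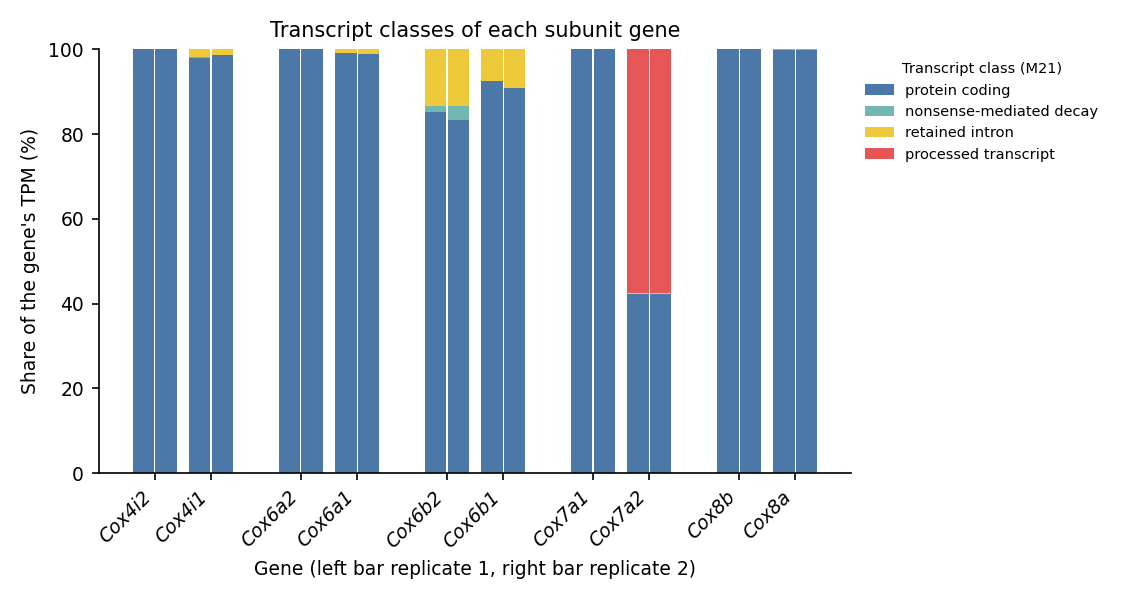
Share of each gene's TPM carried by each M21 transcript class, in replicate 1 (left bar) and replicate 2 (right bar). Cox7a2 is the gene with most of its TPM on a processed transcript, and retained-intron transcripts are visible in Cox6b2 and Cox6b1.

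COX8 is a small single-span membrane subunit. Cox8b (ENSMUSG00000025488, chr7:140898945-140900446, minus strand), the form of heart, skeletal muscle and brown fat, had 72.8 TPM in replicate 1 and 79.2 in replicate 2. Cox8a (ENSMUSG00000035885, chr19:7215153-7217616, minus strand) stood at 1673 and 1662 TPM. With M21 TPM Cox8a was the most abundant of the 10 genes. With M4 Cox6b1 was above Cox8a, at 1826 against 1765 TPM in replicate 1 and 1756 against 1752 in replicate 2. Cox8b lay far below Cox6a2 and Cox7a1, the other muscle forms. The share of Cox8b was 4.17% in replicate 1 (3.81 to 4.55) and 4.55% in replicate 2 (4.15 to 4.97), from 469 and 461 counts. The intervals overlapped, and the mean log2 ratio was −4.45 ± 0.09 (SD, n = 2). Counts not divided by length gave a lower share, 2.46% and 2.68%. Of 6 brown fat markers 2 reached 1 TPM in both libraries (Prdm16 at 17.1 and 17.9 TPM and Cidea at 1.36 and 1.06 TPM), and Ucp1, the uncoupling protein that defines brown fat, had 0 counts in both. Cox8b-201 is the single annotated transcript of Cox8b, and Cox8a-201 carried 99.9% and 99.8% of Cox8a. The coding sequences of this pair were the least alike of the 5, with 53.2% of aligned bases identical and a longest shared run of 10 bases.

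COX4 is the largest nuclear-encoded subunit and binds regulatory nucleotides. Cox4i2 (ENSMUSG00000009876, chr2:152754173-152765037, plus strand), the oxygen-responsive form, had 16.3 TPM in replicate 1 and 14.7 in replicate 2. Cox4i1 (ENSMUSG00000031818, chr8:120668222-120674207, plus strand) stood at 1343 and 1305 TPM. Cox4i2 was 1.20% of the pair in replicate 1 (1.06 to 1.36) and 1.11% in replicate 2 (0.967 to 1.27), from 253 and 206 counts, and the mean log2 ratio was −6.37 ± 0.07 (SD, n = 2). It was the lowest share of the 5 pairs, and the 2 libraries did not differ beyond counting error. Cox4i2-201 carried 93.7% and 95.3% of Cox4i2, and Cox4i1-201 carried 97.2% and 97.8% of Cox4i1. Cox4i1 is overlapped by the read-through gene model Gm20388 on the same strand, which was given 0 counts in replicate 1 and 270 in replicate 2, and over 352 bases by Emc8 on the opposite strand, at 143 and 131 TPM. Among 8 markers of mural cells, the vessel-wall cells in which Cox4i2 is known to be made, 6 reached 1 TPM in both libraries and the sums were 77.4 and 86.9 TPM. Higd1b, a pericyte marker, had 0 counts in both. None of 5 lung epithelium markers reached 1 TPM in both libraries, with Sftpb and Scgb1a1 at 0. Nkx2-1 had 5 counts in replicate 1 and 49 in replicate 2, and Sftpc had 0 and 14. The part of any cell type in the level of Cox4i2 was not tested.

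COX6B faces the intermembrane space near the site where cytochrome c docks. Cox6b2 (ENSMUSG00000051811, chr7:4751792-4753094, minus strand), the testis form, had 34.7 TPM in replicate 1 and 31.9 in replicate 2. Cox6b1 (ENSMUSG00000036751, chr7:30616861-30626151, minus strand) stood at 1433 and 1393 TPM. The share of Cox6b2 was 2.37% in replicate 1 (2.13 to 2.62) and 2.24% in replicate 2 (1.99 to 2.51), from 356 and 288 counts, and the mean log2 ratio was −5.39 ± 0.06 (SD, n = 2). The testis form was therefore above Cox4i2 and below Cox8b in level, with shares that overlapped between the libraries. Of 6 male germ cell markers none reached 1 TPM in both libraries, their sums were 1.99 and 1.98 TPM, and Tnp1, a sperm chromatin protein gene, had 0 counts. Transcript estimates for Cox6b2 were spread over 9 models. Cox6b2-201 had the highest share at 36.6% and 42.2%. Protein-coding models held 85.3% and 83.4%, and a retained-intron model held 13.3% in both libraries. Single coding models varied more between the libraries, with Cox6b2-203 at 18.1% in replicate 1 and 6.65% in replicate 2, from 75.3 and 23.0 estimated counts with posterior SDs of 12.3 and 8.42. Cox6b1-201 carried 91.0% and 88.9% of Cox6b1, and the retained-intron Cox6b1-202 carried 7.39% and 9.23%.

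The order of the shares was Cox6a2, Cox7a1, Cox8b, Cox6b2 and Cox4i2 with TPM from M21, TPM from M4 and undivided counts alike. Over protein-coding transcripts Cox7a1 came before Cox6a2, and the remaining order was as before. Cox4i2 moved least, between 1.09% and 1.22% over both libraries and the 4 measures. Cox7a1 moved most, with counts giving 13.4% and 13.6%. With M21 TPM each share differed less between libraries than from its neighbours in the order.

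**Figure D3:**
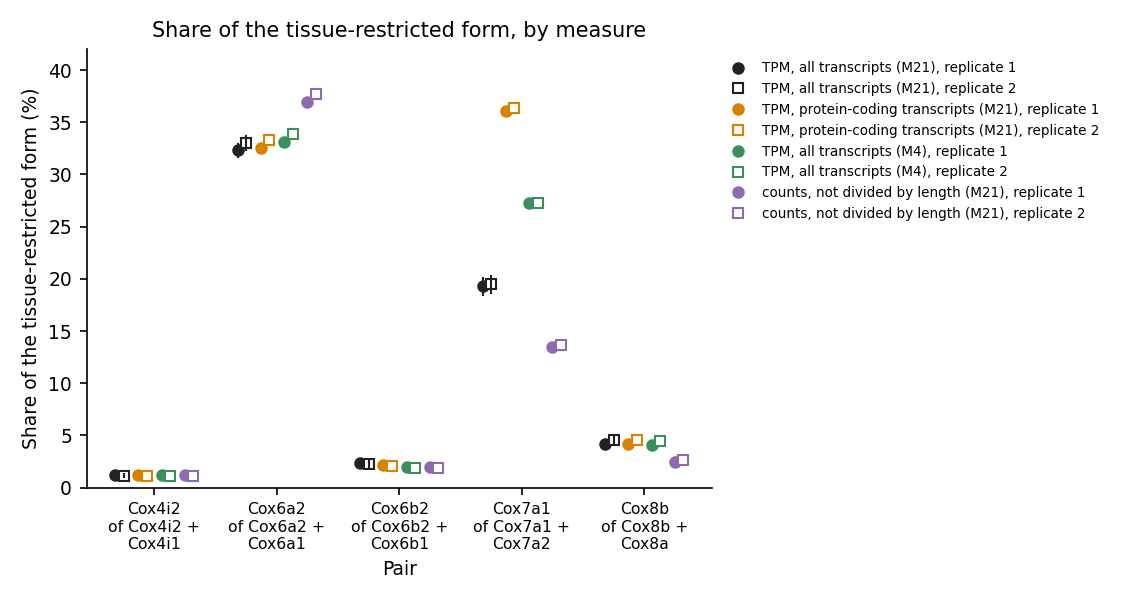
Share of the tissue-restricted form in its pair (percent) by 4 measures, in replicate 1 (filled circles) and replicate 2 (open squares), with 95% counting intervals on the M21 TPM shares. Cox6a2 stays between 32.3% and 37.8%, while Cox7a1 lies between 13.4% and 36.4% according to the measure.

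Summed over the 2 forms, the pairs lay close to each other with M21 and all transcripts. The sums were 1744 ± 3.90 TPM for COX8, 1512 ± 28.0 for COX6A, 1446 ± 30.7 for COX6B, 1340 ± 28.0 for COX4 and 1220 ± 3.31 for COX7A (SD, n = 2 each), a 1.43-fold range. Nuclear-encoded subunits outside the 5 pairs were read on the same scale. Cox6c stood at 1550 ± 21.8 TPM, Cox5a at 1078 ± 0.184, Ndufa4 at 1055 ± 6.99, Cox7c at 982 ± 6.09, Cox5b at 837 ± 7.67 and Cox7b at 620 ± 19.1 (SD, n = 2 each). With M21 and all transcripts the COX8, COX6A, COX6B, COX4 and COX7A sums thus all exceeded 5 of these 6 subunits. Cox6c exceeded every sum except that of COX8. The 6 subunits were not read with M4 or over protein-coding transcripts, so this ranking was not examined under those alternatives. The COX7A sum again turned on the annotation, at 981 ± 1.36 TPM with M4 and 652 ± 2.16 TPM over protein-coding transcripts (SD, n = 2 each), alternatives that were likewise added later. With M4 every sum moved by more than its SD, and COX6B rose to 1826 ± 51.5 TPM, above COX6A at 1600 ± 28.6 (SD, n = 2 each). Over protein-coding transcripts COX6B was at 1324 ± 46.4 TPM (SD, n = 2). The range over the 5 pairs was then 1.87-fold and 2.67-fold, so their closeness did not hold under either. The mitochondrially encoded core subunits were listed at 2295 ± 8.73 TPM for mt-Co1, 2496 ± 58.3 for mt-Co2 and 1734 ± 173 for mt-Co3 (SD, n = 2 each).

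**Figure D4:**
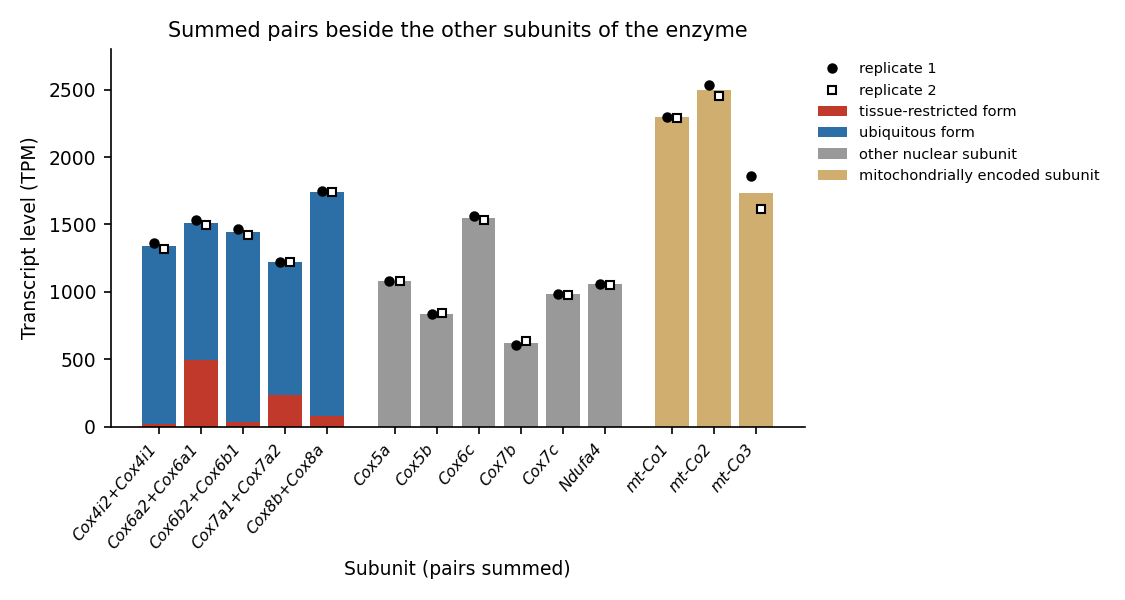
Mean TPM of each pair, stacked as tissue-restricted and ubiquitous form, beside nuclear subunits outside the pairs and mitochondrially encoded subunits, with points for each library. With all M21 transcripts, pair sums run between 1220 and 1744 TPM and the other nuclear subunits between 620 and 1550 TPM.

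Among related genes outside the pairs, Cox7a2l, which encodes a COX7A-like protein, stood at 148 ± 1.73 TPM (SD, n = 2). Ndufa4l2, a hypoxia-responsive relative of Ndufa4, stood at 19.1 and 15.2 TPM. Cox7b2 had 3 counts in each library, and Cox8c had 1 count in replicate 1 and 0 in replicate 2, all at or below the 3 counts that an observed 0 allows. Of 24 assembly factors 23 reached 1 TPM in both libraries, with medians of 39.3 and 39.6 TPM, above Cox6b2 and Cox4i2 and below the other 8 subunit genes of the pairs. The highest were the copper chaperone Cox17 at 238 ± 2.50 TPM, Higd1a at 193 ± 12.0 and Higd2a at 191 ± 2.12 (SD, n = 2 each).

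The 2 libraries were compared gene by gene with an exact binomial test on TMM-scaled counts, which asks whether they differ by more than counting error and says nothing of a condition. None of the 10 genes passed an adjusted p under 0.05 together with a log2 ratio of at least 1 in size, against 282 of 17970 genes tested (1.57%). An unadjusted p under 0.05 was reached by 4 of 10, against 4050 of 17970 genes (22.5%). By the adjusted p alone 3 of 10 passed, against 1799 of 17970 genes (10.0%). All 3 were higher in replicate 1, as were 1029 of the 1799 genes. Those 3 were Cox4i1, with a log2 ratio of 0.07 and an adjusted p of 0.000149 by the exact binomial test, Benjamini-Hochberg adjusted, Cox6a1 (0.08, adjusted p 0.000461) and Cox6b1 (0.09, adjusted p 2.74e-06). They are 3 of the 5 ubiquitous genes, whose high counts give narrow intervals, and the sizes were small. Cox4i2 and Cox6b2 had larger log2 ratios, 0.18 (95% interval −0.09 to 0.46) and 0.19 (−0.04 to 0.42), without passing. Cox8b was lower in replicate 1, at −0.09 (−0.28 to 0.10), also without passing, and Cox7a1 was at 0.01 (−0.09 to 0.11), which turned to −0.0063 when scaled by total count. The median log2 ratio was 0.05 over the 10 genes and 0.01 over all genes tested, and the median size 0.0759 against 0.0991. By the same test 0 of these 6 other nuclear subunits and 1 of 24 assembly factors passed both thresholds. That factor was Pet117, at 3.01 and 0.70 TPM. All 5 hepatocyte markers passed both thresholds, higher in replicate 1, and 4 of 5 red-cell markers passed the adjusted p alone in the same direction. In the other direction 1 mural marker (Myh11, log2 ratio −1.23) and 1 lung marker (Nkx2-1, −3.28) passed both thresholds, lower in replicate 1. Their part in the differences between libraries was not tested.

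**Figure D5:**
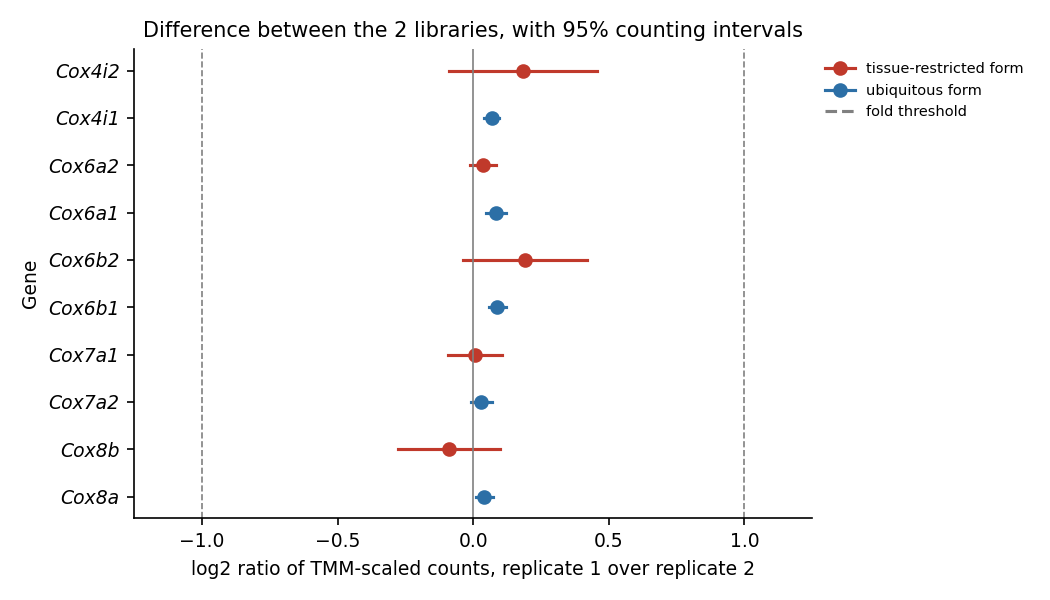
log2 ratio of TMM-scaled counts, replicate 1 over replicate 2, for each gene with its 95% counting interval, and dashed lines at the fold threshold of 1 in size. All 10 ratios lie between −0.09 and 0.19.

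RefSeq start regions of the GRCm38.p6 build, the 250 bases before each start, were found for 7 of the 10 genes, not including Cox4i2, Cox4i1 and Cox6a2. CpG dinucleotides numbered 8 for Cox6b2, 4 for Cox7a1 and 1 for Cox8b among the tissue-restricted genes, and 26 for Cox6a1, 14 for Cox6b1, 14 for Cox7a2 and 11 for Cox8a among the ubiquitous ones. Over 32851 such regions the median was 6, with quartiles of 2 and 16. The counts of the 2 kinds of gene did not overlap, which is a description of 7 windows. The COX8 pair is printed because it holds the lowest count among them beside an abundantly read partner, with the sequence 5′ to 3′ on the gene's strand (minus for both, chr7:140900447-140900696 and chr19:7217617-7217866) and CpG in capitals.
Cox8b: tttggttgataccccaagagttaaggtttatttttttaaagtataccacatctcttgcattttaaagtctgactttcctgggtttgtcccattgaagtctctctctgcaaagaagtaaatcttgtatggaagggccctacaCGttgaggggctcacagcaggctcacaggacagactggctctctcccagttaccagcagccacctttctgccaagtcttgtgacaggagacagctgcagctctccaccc
Cox8a: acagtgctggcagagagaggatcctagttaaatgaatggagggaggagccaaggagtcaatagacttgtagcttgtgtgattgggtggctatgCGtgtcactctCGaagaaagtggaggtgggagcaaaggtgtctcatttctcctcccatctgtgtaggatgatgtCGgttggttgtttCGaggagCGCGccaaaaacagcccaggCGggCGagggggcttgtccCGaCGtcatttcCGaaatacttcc

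Short motifs were searched on both strands of the 7 regions. The GC box GGGCGG, held by 32.7% of all regions, occurred in those of Cox6b2, Cox6a1 and Cox7a2. The ETS core CCGGAAG (6.91% of regions) occurred in those of Cox6a1 and Cox6b1, and the NRF1 core GCGCATGC (2.26%) in that of Cox6a1. The E-box CANNTG (66.2%) occurred in those of Cox7a1, Cox8b, Cox6b1, Cox7a2 and Cox8a. A MEF2 motif (2.92%) was in none of the 7 windows. A CANNTG match can overlap the other motifs only in part, and these matches describe letters, not binding.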

How the data were processed

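For each library and annotation release, the deposited per-gene and per-transcript tables (GENCODE M21, used throughout, and M4; genome mm10) were read. Per the deposited README they derive from transcriptome alignments; the sources used here do not name the aligner and counter. The authors' tables hold expected counts (estimated read counts, not normalized), TPM and FPKM scaled by the authors over all features with spike-ins included, posterior mean values, and the percent of each gene in each transcript. No molecular identifiers were stated, so the intervals and floors describe only counting error.

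Shares are the TPM of the tissue-restricted form over the summed TPM of its pair. Their exact Clopper-Pearson 95% intervals come from the counts and each gene's TPM per count. Log2 ratios used a pseudocount of 0.5 TPM, taken within each library, and were not tested. Counts on genes were 34248993 and 31394912. Expected counts were rounded, scaled by TMM (edgeR 4.0.16, R 4.3.3) and compared with a two-sided exact binomial test over genes whose counts summed to 20 or more, with Benjamini-Hochberg adjustment. That test was checked on simulated counts that held counting error only. The check therefore cannot cover variation between real libraries. DESeq2 1.42.0 size factors, other count minimums, scalings, pseudocounts and M4 were alternatives. Python 3.11.15, numpy 2.4.6, scipy 1.17.1, pandas 2.3.3, Biopython 1.88 and matplotlib 3.10.9 were used. Coding sequences were aligned with Biopython. All 10 genes, the fixed lists of other subunits and assembly factors, 3 other pairs of isoform genes and the cell type markers are named by rule. Of the assembly factors, the 3 highest and any that passed or lay under 1 TPM in both libraries are named. The members and lists were chosen with earlier results of these data known.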

Additional observations from a re-analysis of the deposited data

How the results depend on the processing

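The log2 ratio of tissue-restricted to ubiquitous form stayed below 0 for all 5 pairs under every alternative run. For Cox6a2/Cox6a1 it was −0.99 with M4 and −0.75 with undivided counts, against −1.04. For Cox6b2/Cox6b1 it was −5.66 with M4, −5.32 with posterior mean TPM, −5.67 with counts and −5.50 over protein-coding transcripts, against −5.39. For Cox7a1/Cox7a2 it was −1.41 with M4, −2.67 with counts and −0.81 over protein-coding transcripts, against −2.06. For Cox8b/Cox8a it was −5.24 with counts, against −4.45. Undivided counts leave out transcript length. M4 lists fewer transcripts of Cox6b1, Cox7a1, Cox7a2 and Cox8a, though Cox8b/Cox8a stayed within its spread with M4, at −4.47. For Cox6a2 and Cox6a1 M4 lists as many transcripts as M21, and the effective length of Cox6a2 was 559 bases in M4 and 581 in M21. The causes of these moves were not tested. Cox4i2/Cox4i1 moved by less than its spread, as did all pairs with FPKM and with pseudocounts of 0.1 and 1 TPM. Using 1 library at a time gave −6.43 to −6.32 for COX4, −1.07 to −1.02 for COX6A, −5.43 to −5.35 for COX6B, −2.06 to −2.05 for COX7A and −4.51 to −4.38 for COX8. Of the 10 genes 0 differed between the libraries under every scaling and count minimum and with M4, and 3 did with no fold threshold (4 when also scaled by spike-ins). Over all genes 282 were called, and 60 with a summed count of at least 100. The ratio of Cox7a1 between libraries turned to −0.0063 when scaled by total count. M4 gives no value for Cox7a2-203, which it does not list. No paired analysis was possible because both libraries belong to 1 group, so the replicate numbers pair no groups. The 2 forms of a pair were set against each other within each library. The transcript estimates of Cox6b2 rest on 356 and 288 counts over 9 models, and the part of depth in their spread was not tested.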

Other observations

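Other mitochondrial proteins with paired genes gave different shares in the same libraries. Slc25a4, the adenine nucleotide carrier form known from heart and muscle, stood at 1309 TPM in both libraries, and Slc25a5, the widely expressed form, at 774 TPM in replicate 1 and 797 in replicate 2. Slc25a4 was 62.8% and 62.2% of that pair, so here the muscle form was the higher one, unlike in the COX6A, COX7A and COX8 pairs. Ckmt2, the sarcomeric mitochondrial creatine kinase, stood at 9.56 and 9.98 TPM and Ckmt1, the ubiquitous one, at 0.33 and 0.06 TPM, so Ckmt2 was 96.7% and 99.4% of a pair that was low in level. Atp5g1 and Atp5g3, which encode the same subunit c of ATP synthase, stood at 1100 and 1091 TPM and at 1677 and 1519 TPM. Atp5g1 was 39.6% and 41.8% of their sum, from which any further gene of subunit c was left out. These pairs were described without a test.

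Of the 10 oxidase genes, 5 lie on chromosome 7: the tissue-restricted genes other than Cox4i2, and Cox6b1. Within 2 kb of the 10 genes M21 lists 9 other genes, of which 3 overlap a member. A search of M21 for pseudogenes named with a member's symbol followed by -ps found 0. Pseudogenes under other names were not searched. The estimated gene counts carried a posterior SD of 0 for 8 of the 10 genes, and of 0.48 and 0.16 counts for Cox4i1 and 0.34 and 0.26 counts for Cox6a1.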
